A study of Mus musculus with 9 samples.

Results

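The 35 genes described here encode the enzymes of glycolysis, the transporters that move glucose and lactate across the cell membrane, and transcripts known to rise when oxygen is short. They were taken by gene symbol from a list of known enzymes, transporters and hypoxia-inducible genes, and all 35 were found among the 54532 gene IDs of the count files and among the 17821 genes with enough counts to be tested. Whole striatum was sequenced, as polyadenylated RNA, in 9 libraries of C57BL/6J mice: 3 from animals lacking STING (STING KO), 3 from animals lacking cGAS (cGAS KO) and 3 from wild-type animals (WT). cGAS detects DNA in the cytosol and STING passes that signal on. Both knockouts were made with CRISPR-Cas9, and the series states that the brains came from mice with ischemic stroke. Neither the time after the stroke, the side of the brain, the age nor the edited exons are given in the sources used here, and uninjured brains were not analysed here. Differences below are therefore between genotypes. A response to the stroke may be part of any value here and cannot be told apart.

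Glycolysis splits glucose into pyruvate and yields ATP without oxygen, and lactate dehydrogenase then converts pyruvate and lactate into each other. In brain, astrocytes are known for high glycolytic flux and for release of lactate, which neurons can take up. When oxygen falls, prolyl hydroxylases stop marking the alpha subunits of the hypoxia-inducible factors (HIF) for destruction. HIF then binds a short DNA core, often ACGTG, in the hypoxia response elements of its target genes, many glycolytic genes among them. Only this form of the core was searched for here. HIF1A itself is controlled mostly at the level of the protein, so the transcripts of its targets carry more of this signal than its own.

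Promoters were read for that core, ACGTG or its reverse complement CACGT, on both strands, in the RefSeq window that runs from 250 bases before to 50 bases after a transcription start (GRCm38.p6). For a gene with several windows the window with the most matches was used. At least 1 match was present in 23 of the 32 listed genes with a promoter entry (71.9%), against 21.8% of 27025 genes with an entry and 23.2% of 17492 protein-coding genes. At least 2 matches were present in 13 of the 32 (40.6%), against 9.28% of all genes. Taken per window, 19.6% of 32851 promoters held a match. The palindrome CACGTG counts on both strands, so it adds 2 overlapping matches. Among the glycolytic enzymes 10 of 17 had a match, and among the other genes 13 of 15. Slc2a3, Ndrg1 and Epas1 had no promoter entry. The list was drawn from genes known as hypoxia targets, so this share is a description of the list, and a match in these letters is not a measured binding site. The 4 promoters with the most matches are printed to give the motif in place, 5′ to 3′ on the plus strand, with the matches in capitals. They belong to Ldha (5 matches), which makes the muscle-type subunit of lactate dehydrogenase, Hif1a (3), Pfkm (3), a phosphofructokinase subunit, and Slc16a1 (3), a monocarboxylate transporter.
Ldha, chr7:46845554-46845853: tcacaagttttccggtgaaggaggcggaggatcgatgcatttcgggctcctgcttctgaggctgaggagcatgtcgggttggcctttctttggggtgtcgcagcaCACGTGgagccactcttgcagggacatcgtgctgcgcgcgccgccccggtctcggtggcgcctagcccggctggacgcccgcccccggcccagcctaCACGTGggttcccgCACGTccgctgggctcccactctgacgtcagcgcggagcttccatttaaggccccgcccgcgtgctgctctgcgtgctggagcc
Hif1a, chr12:73907617-73907916: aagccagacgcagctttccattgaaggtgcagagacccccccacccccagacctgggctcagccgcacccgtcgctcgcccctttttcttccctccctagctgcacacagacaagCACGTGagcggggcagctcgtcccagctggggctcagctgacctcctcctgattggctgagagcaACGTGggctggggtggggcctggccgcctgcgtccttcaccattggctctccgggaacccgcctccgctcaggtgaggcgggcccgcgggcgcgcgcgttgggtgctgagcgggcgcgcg
Pfkm, chr15:98092339-98092638: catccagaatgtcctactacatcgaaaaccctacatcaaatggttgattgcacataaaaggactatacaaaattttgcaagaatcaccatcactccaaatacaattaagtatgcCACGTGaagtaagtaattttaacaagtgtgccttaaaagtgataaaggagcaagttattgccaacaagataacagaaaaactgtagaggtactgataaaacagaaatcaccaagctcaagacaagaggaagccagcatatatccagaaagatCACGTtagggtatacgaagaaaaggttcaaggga
Slc16a1, chr3:104638414-104638713: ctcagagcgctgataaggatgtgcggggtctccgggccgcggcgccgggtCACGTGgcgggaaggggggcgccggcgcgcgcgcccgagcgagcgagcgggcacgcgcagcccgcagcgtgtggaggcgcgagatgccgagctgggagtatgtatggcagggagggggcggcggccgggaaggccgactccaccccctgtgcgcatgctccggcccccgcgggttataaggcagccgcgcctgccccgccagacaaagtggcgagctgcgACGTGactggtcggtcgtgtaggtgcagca
In the Ldha window both palindromes and the single match lie within 145 bases of the start. The Pfkm window shown is the start at the outer end of the annotated gene, and 1 of its 3 matches lies 17 bases after that start. None of the 4 genes passed the threshold of the test between genotypes.

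The libraries held 14129021 to 21286775 counts each. The targeted transcripts were low in every library. Cgas was at 1.55, 1.05 and 1.45 CPM (counts relative to library size after TMM scaling) in STING KO, at 1.10, 0.377 and 0.262 CPM in cGAS KO and at 1.40, 2.63 and 3.18 CPM in WT, so that the cGAS KO libraries lay below the WT libraries. Sting1 was at 2.18, 1.05 and 1.85 CPM in STING KO, at 2.67, 1.66 and 2.75 CPM in cGAS KO and at 4.06, 3.01 and 1.34 CPM in WT, so that STING KO and WT overlapped and the Sting1 level does not by itself check the label. A library of each group stood apart from the other libraries of its group: STING KO 2, cGAS KO 2 and WT 3 had 2280 to 4723 genes with 1 to 9 counts, against 7096 to 7927 in the other 6, and 0.254% to 0.660% of their counts on ribosomal protein genes, against 0.763% to 0.996%. They are called libraries of low complexity below, a division taken from the data, and results are given with and without them. Nothing in the labels says that replicates are separate animals, so p-values reflect only how these libraries vary. Striatal identity was present throughout: summed medium spiny neuron markers were at 8826 to 9412 CPM in STING KO, 8903 to 10809 CPM in cGAS KO and 5281 to 9896 CPM in WT, with WT 3 the lowest.

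Levels of the genes were compared per length, as TPM (transcript abundance scaled to a fixed total) computed from the counts and the union of each gene's exons. Aldoa, the aldolase of muscle and brain (chr7:126795234-126800751, minus strand, GRCm38), was the most abundant at a mean of 952.5 TPM over the 9 libraries. It was followed by Ldhb, the heart-type lactate dehydrogenase subunit, at 711 TPM, and by Eno2, the neuronal enolase, at 557 TPM. Pkm, pyruvate kinase, averaged 544 TPM and Aldoc, the aldolase typical of astrocytes, 532 TPM. At the other end stood Adm, which encodes the vasodilator adrenomedullin, at 2.65 TPM, and Hk2, the inducible hexokinase, at 2.80 TPM. Slc16a3, the lactate exporter MCT4, averaged 3.47 TPM, Egln3, an oxygen-sensing prolyl hydroxylase, 5.67 TPM, and Ankrd37, a small HIF target, 8.59 TPM. Most neighbours in this order overlapped over libraries. Among the 34 neighbouring pairs the libraries did not overlap at 2 steps, from Slc2a1 (163 TPM) to Egln1 (110.4 TPM) and from Pdk1 (22.7 TPM) to Ankrd37. The order depended on the length used. Per longest annotated transcript Aldoa still led, at 1437 TPM, followed by Pkm at 898 TPM. Eno1 averaged 752 TPM on that length and 353 TPM per exon union. Ldhb stood below both enolases at 687 TPM, and Hk2 was the lowest at 2.43 TPM.

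**Figure D1:**
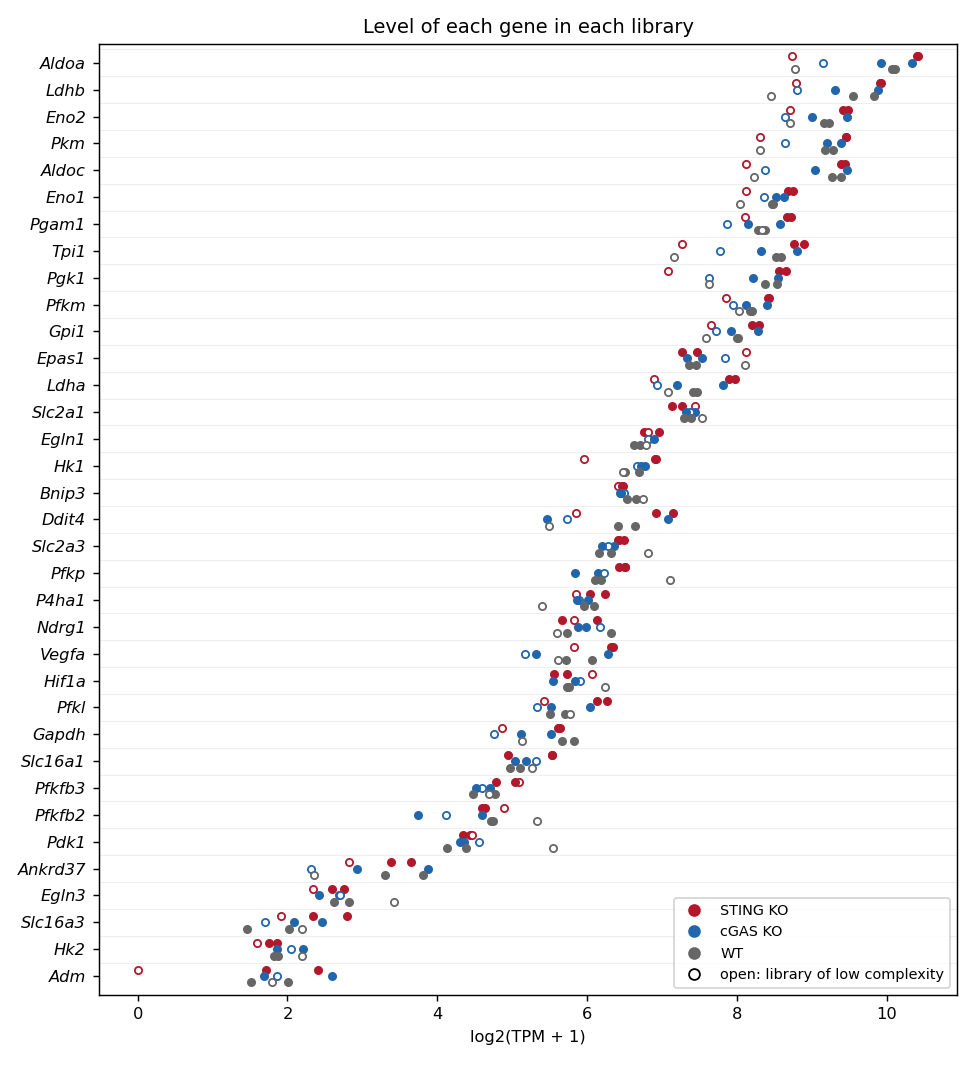
Level of each of the 35 genes in each of the 9 libraries, as log2(TPM + 1), ordered by the mean over libraries. Red points are STING KO, blue points cGAS KO and grey points WT, and open points are the 3 libraries of low complexity. Aldoa, Ldhb and Eno2 stand at the top and Slc16a3, Hk2 and Adm at the bottom, and the open points of most glycolytic enzymes lie left of the filled ones.

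Within each family of related genes the same member led in every library when TPM were used. Hk1, the constitutive hexokinase of brain, made up 96.1% to 98.1% of the Hk1 and Hk2 total. Ldhb made up 72.3% to 84.3% of lactate dehydrogenase, Aldoa 59.3% to 67.2% of the aldolases, and Pfkm 57.7% to 73.3% of phosphofructokinase. Slc16a1, the monocarboxylate transporter MCT1, made up 87.5% to 94.6% of the pair with Slc16a3, and Epas1, which encodes HIF2A, 75.8% to 80.7% of the pair with Hif1a.

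Some of these shares turned on the gene length used. Eno2 held 54.9% to 64.1% of the enolase total per exon union, but 43.5% to 53.1% per longest annotated transcript, so which enolase led was not fixed. Pfkm held 49.5% to 65.9% per longest transcript.

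Slc2a1, the GLUT1 transporter of the blood-brain barrier and of astrocytes, made up 61.1%, 67.0% and 64.5% of the pair with Slc2a3 in STING KO, 68.1%, 68.2% and 68.7% in cGAS KO and 70.3%, 66.5% and 62.3% in WT. Slc2a3 is the neuronal glucose transporter GLUT3. The STING KO shares lay below the cGAS KO shares without overlap, and both overlapped WT. The same was so for the Pfkm share of phosphofructokinase, by a narrow margin. It was 67.9%, 63.6% and 68.3% in STING KO, against 71.5%, 68.6% and 73.3% in cGAS KO.

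**Figure D2:**
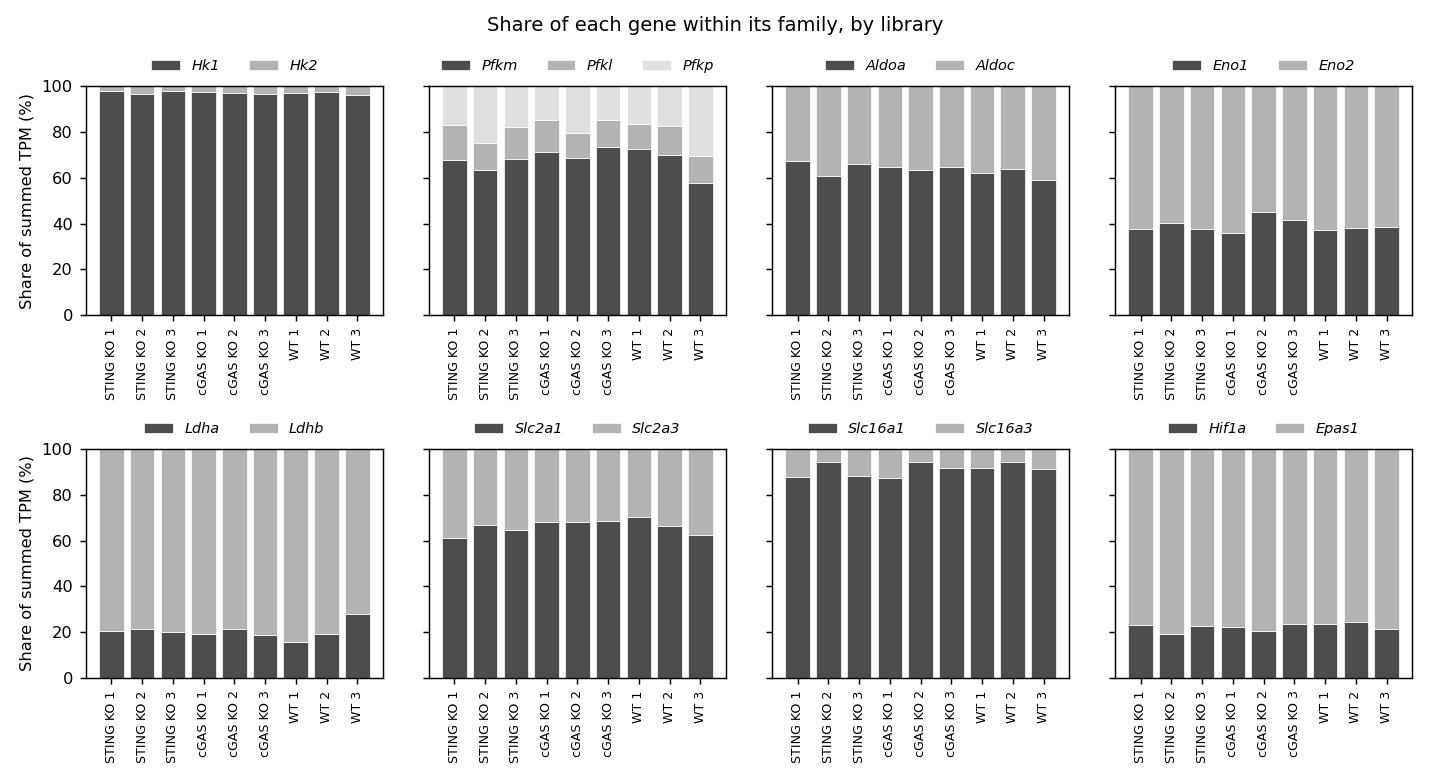
Share of each gene in the summed TPM of its family, in percent, for 8 families and 9 libraries, with STING KO libraries on the left, cGAS KO in the middle and WT on the right of each panel. The same gene leads in all 9 libraries of a panel, and Hk1 takes over 96% in each.

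No difference between genotypes passed the threshold at any of the 35 genes in edgeR's quasi-likelihood test with Benjamini-Hochberg adjustment over 17821 genes. In STING KO against WT 0 of 35 were called, with 0% of all genes called. In cGAS KO against WT 0 of 35 were called, also with 0% of all genes, and in STING KO against cGAS KO 0 of 35, again with 0%. At an unadjusted p under 0.05 the counts were 0 of 35 (1.63% of all genes), 1 of 35 (2.03%) and 0 of 35 (1.45%) in these 3 comparisons, and the comparisons with WT share their WT libraries. DESeq2 and limma-voom also called 0 of the 35. Fold changes below are log2, first-named group over second.

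The signs leaned one way against WT. In STING KO against WT 23 of 35 fold changes were positive (49.4% of all genes), with a median of 0.10, and in cGAS KO against WT 25 of 35 (48.5% of all genes), with a median of 0.09. Over all genes those medians were -0.00 and -0.01. In STING KO against cGAS KO 17 of 35 were positive (51.1% of all genes), with a median of -0.00. The size and sign of these medians moved with single libraries. Without WT 3 the median was -0.05 in STING KO against WT and -0.06 in cGAS KO against WT. Without STING KO 2 it was 0.30 for STING KO over WT and 0.23 for STING KO over cGAS KO. Without cGAS KO 2 it was 0.29 for cGAS KO over WT and -0.14 for STING KO over cGAS KO. Each of these 3 is a library of low complexity. With all 3 left out, 25 of 35 fold changes were positive for STING KO over WT (50.2% of all genes), with a median of 0.15, 23 of 35 for cGAS KO over WT (49.6%), with a median of 0.11, and 25 of 35 for STING KO over cGAS KO (50.8%), with a median of 0.02.

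**Figure D3:**
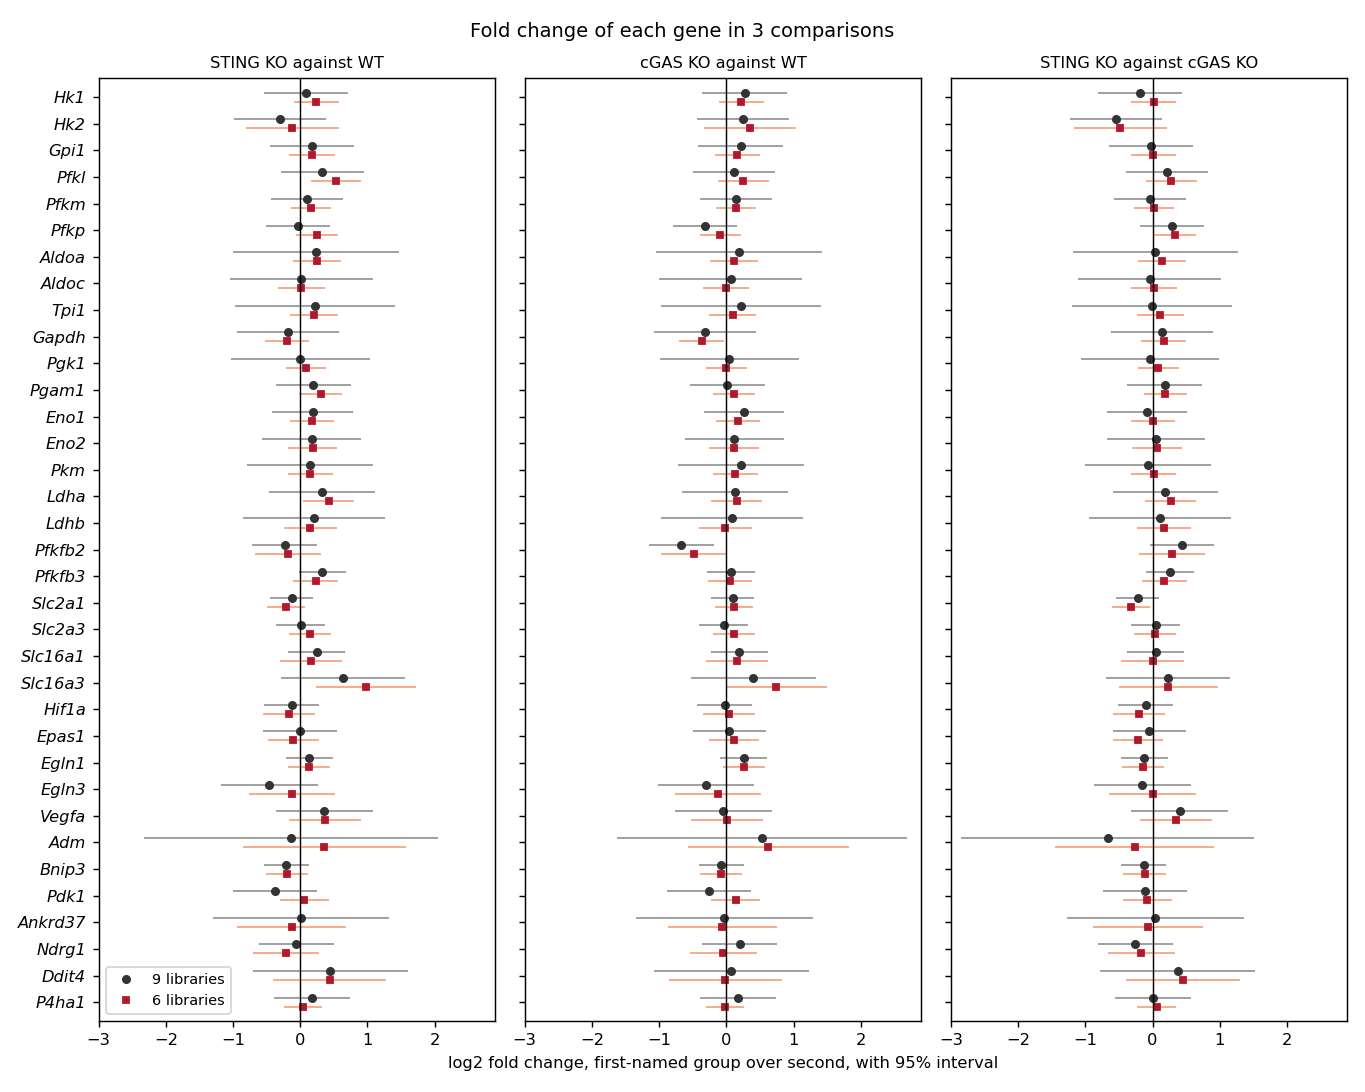
Log2 fold change of each gene, first-named group over second, with its 95% interval, for STING KO over WT, cGAS KO over WT and STING KO over cGAS KO. Black circles use all 9 libraries and red squares the 6 libraries left without those of low complexity. The squares of STING KO against WT lie right of 0 for 15 of the 17 glycolytic enzymes (50.2% of all genes), and none of the 35 passed the adjusted threshold in either fit.

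Within each genotype the glycolytic enzymes were low in the library of low complexity. Summed over the 17 enzymes, CPM were 6731, 3185 and 6353 in STING KO, 6504, 3795 and 5801 in cGAS KO and 5752, 5745 and 3169 in WT. The low value of each group is its library of low complexity. In all 3 of those libraries 15 of the 17 enzymes were below the mean of their group's other 2 libraries, as were 30.9% of all tested genes, and the median log2 difference was -0.78 (-0.04 over all genes). The exceptions were Hk2 and Pfkp. No test was made of this difference, since the division was taken from the data. Cell type markers moved in the same libraries. Microglia and macrophage markers were lower in all 3 for 6 of 8 genes, with sums of 235 to 285 CPM in the 3 libraries, against 314 to 450.2 CPM in the other 6. Oligodendrocyte markers were lower in all 3 for 5 of 8, medium spiny neuron markers for 6 of 12, astrocyte and endothelial markers for 4 of 8 each and cortical glutamatergic neuron markers for 0 of 8. Summed oligodendrocyte and medium spiny neuron markers were the lowest of their group in WT 3 only. In cGAS KO 2 oligodendrocyte markers summed to 15221 CPM, against 12293 and 12251 CPM in cGAS KO 1 and 3. In WT 3 cortical neuron markers summed to 1245 CPM, against 111 and 483 CPM in WT 1 and 2, and astrocyte markers to 7736 CPM, against 4318 and 5050 CPM. None of these markers was at 0 in any library, and their part in the enzyme values was not tested.

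The drop differed between the enzymes. Aldoa differed by -1.76 in STING KO 2, by -1.11 in cGAS KO 2 and by -1.60 in WT 3 (log2, low-complexity library minus its group's others), and Aldoc by -1.39, -1.02 and -1.38 in the same libraries. Tpi1, which interconverts the triose phosphates, differed by -1.65, -0.92 and -1.67. Aldoa and Aldoc were over 2-fold lower in all 3 libraries, as were 1.75% of all tested genes. Hk1 differed by -1.05, -0.22 and -0.40 and Pfkm by -0.66, -0.45 and -0.44, which is less than at aldolase.

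The other genes were mixed. Hif1a was higher in all 3 libraries (0.34, 0.07 and 0.22) and so was Epas1 (0.66, 0.26 and 0.43), as were 26.5% of all tested genes. None of the 4 transporters and neither Pfkfb2 nor Pfkfb3 moved in 1 direction in all 3. Of the 8 hypoxia-inducible effectors 6 were lower in all 3, with Ddit4 at -1.25, -0.67 and -1.28 and Vegfa at -0.60, -0.76 and -0.56. The difference ran with transcript length. Across the 35 genes its mean over the 3 libraries had a Spearman correlation of 0.77 with the length of the longest transcript. The correlation was 0.56 with exon-union length and -0.51 with the GC content of the longest transcript. Across 17813 tested genes the correlations were 0.42 with the length of the longest transcript and 0.37 with exon-union length. With GC content it was -0.365 across 17806 genes. These are correlations across genes measured in the same libraries, and the part of length in the difference was not tested.

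**Figure D4:**
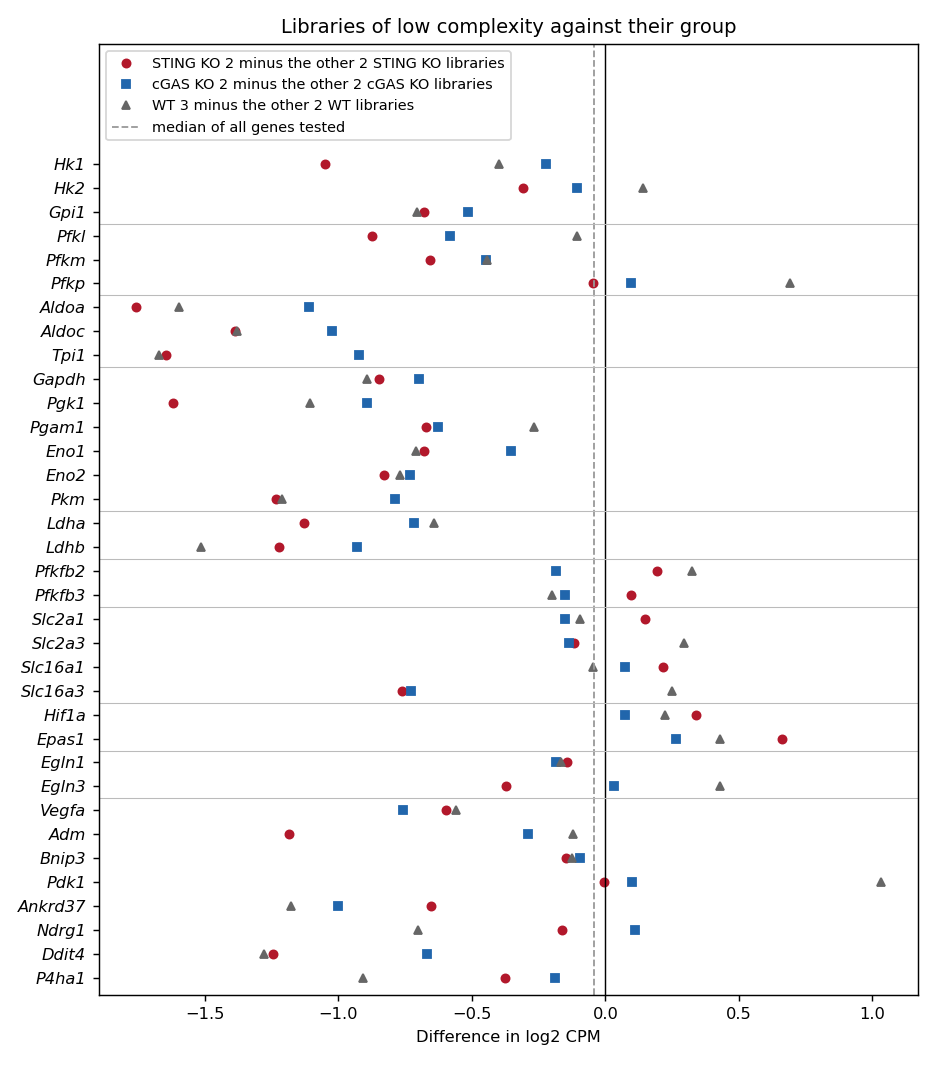
Log2(CPM + 1) of each gene in a library of low complexity minus the mean of the other 2 libraries of its group, for STING KO 2 (red circles), cGAS KO 2 (blue squares) and WT 3 (grey triangles). The dashed line is the median over all tested genes at -0.04. Most glycolytic enzymes lie left of that line in all 3 libraries, with Aldoa at -1.76, -1.11 and -1.60, while Hif1a and Epas1 lie to its right.

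Without the 3 libraries of low complexity, each group held 2 libraries, and the biological coefficient of variation over all genes was 17.2% instead of 38.8%. edgeR's quasi-likelihood test still called 0 of the 35 in any comparison, with 0.0227% of all genes called in STING KO over WT, 0% in cGAS KO over WT and 0.017% in STING KO over cGAS KO. The lowest adjusted p was 0.653, for Pfkl in STING KO against WT. In that comparison 14 of the 17 glycolytic enzymes were higher in both STING KO libraries than in both WT libraries, against 24.4% of all 17657 genes tested, and Gapdh was lower. Over all 35 genes 19 were higher without overlap and 6 were lower, against 23.3% of all genes lower. The 19 included Pfkfb3, Slc16a3, Egln1, Vegfa and Ddit4 beside the 14 enzymes. The 6 were Gapdh, Pfkfb2, Slc2a1, Hif1a, Epas1 and Bnip3, with fold changes between -0.21 and -0.10. The median fold change of the 17 was 0.17 (0.00 over all genes). With RLE, upper-quartile or library-total scaling the same 2 counts, 14 higher and 1 lower, were obtained. With 2 libraries in each group, 47.7% of all genes did not overlap in either direction. In cGAS KO against WT 5 of the 17 enzymes were higher without overlap (14.4% of all genes) and 1 lower (15%), with 29.4% of all genes apart in either direction. In STING KO against cGAS KO 6 were higher (16.6% of all genes) and 1 lower (15.3%), with 31.9% apart in either direction.

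Cell type markers differed between the same libraries. Summed cortical glutamatergic neuron markers reached 679 and 531 CPM in STING KO 1 and 3, against 111 and 483 CPM in WT 1 and 2, and all 8 had a positive fold change in STING KO against WT. All 8 astrocyte markers had a negative one, with sums of 3846 and 3987 CPM in STING KO, against 4318 and 5050 CPM in WT. Of 8 endothelial markers 7 were negative, with sums of 279 and 284 CPM in STING KO, against 336 and 354 CPM in WT. All 8 oligodendrocyte markers were negative, with a median of -0.30. Their sums overlapped, at 7501 and 13202 CPM in STING KO and 17805 and 11569 CPM in WT. All 5 fibroblast markers and 8 of 12 medium spiny neuron markers were negative too. Of the 8 microglia and macrophage markers 4 were negative and 4 positive. Choroid plexus markers reached 2757 CPM in WT 1, against 60.1 to 215 CPM in the other 5 of these libraries. None of these markers was at 0, and their part in the enzyme values was not tested. In bulk tissue, fewer cells of a type and less RNA per cell cannot be told apart.

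The first steps of glycolysis trap glucose as its phosphate and commit it. Hk1 was at 257.5, 121 and 245 CPM in STING KO, at 237, 212 and 259 CPM in cGAS KO and at 195, 231.5 and 161 CPM in WT. Hk2 was at 3.98, 2.79 and 3.41 CPM in STING KO, at 4.003, 4.60 and 6.29 CPM in cGAS KO and at 3.84, 4.19 and 4.53 CPM in WT. The STING KO values of Hk2 all lay below the cGAS KO values, with a log2 fold change of -0.55 and an SE of 0.31 (unadjusted p = 0.106, adjusted p = 1 by edgeR's quasi-likelihood test). Gpi1, glucose phosphate isomerase, averaged 423 ± 108 CPM in STING KO, 431 ± 89.1 CPM in cGAS KO, against 373 ± 95.8 CPM in WT (SD, n = 3 each).

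Phosphofructokinase catalyses the committed step. Pfkl, the liver-type subunit (chr10:77986947-78010083, minus strand), was at 128, 64.7 and 111 CPM in STING KO, at 110.3, 64.8 and 86.4 CPM in cGAS KO and at 75.6, 89.8 and 76.5 CPM in WT. With all libraries its fold change in STING KO relative to WT came to 0.33 with an SE of 0.27. Without the libraries of low complexity it was 0.53 with an SE of 0.17 (unadjusted p = 0.0114, adjusted p = 0.653 by edgeR's quasi-likelihood test), and both STING KO libraries were above both WT libraries. Pfkp, the platelet-type subunit, was at 286, 279 and 291.5 CPM in STING KO, at 238, 243 and 218 CPM in cGAS KO and at 230.5, 254 and 391 CPM in WT. Every STING KO library was above every cGAS KO library, with a fold change of 0.29 and an SE of 0.21, and the WT libraries spanned both, with WT 3 the highest. Pfkm averaged 247 ± 59.94 CPM in STING KO, 253 ± 44.0 CPM in cGAS KO, against 230 ± 38.6 CPM in WT.

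Aldolase splits the sugar, and the payoff steps then yield ATP and pyruvate. Aldoa was at 1007, 288 and 948 CPM in STING KO, at 956, 408 and 815 CPM in cGAS KO and at 815, 825 and 270 CPM in WT. Relative to WT its fold change in STING KO came to 0.23, and its 95% interval ran from 0.499 to 2.76 times the WT level. Pkm was at 882, 367 and 850 CPM in STING KO, at 852, 493.5 and 856 CPM in cGAS KO and at 794, 764 and 336 CPM in WT. Aldoc, the second aldolase, averaged 437 ± 197 CPM in STING KO, 450.3 ± 166 CPM in cGAS KO, against 432 ± 194 CPM in WT. Tpi1, triose phosphate isomerase, averaged 238 ± 123 CPM in STING KO, 239 ± 83.6 CPM in cGAS KO, against 206 ± 106 CPM in WT. With all libraries the groups overlapped for all of these genes, and the lowest value of each group was its library of low complexity.

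Pgk1, phosphoglycerate kinase, was at 214, 69.6 and 219 CPM in STING KO, at 213, 109 and 193 CPM in cGAS KO and at 211, 196 and 93.8 CPM in WT. Pgam1, phosphoglycerate mutase, averaged 177 ± 43.8 CPM in STING KO, 156 ± 39.9 CPM in cGAS KO, against 155 ± 16.3 CPM in WT. Eno1, the widely expressed enolase, averaged 488 ± 124 CPM in STING KO, 516 ± 71.3 CPM in cGAS KO, against 429.7 ± 111 CPM in WT. With all libraries the groups overlapped for these genes as well. Eno2, the neuronal enolase, averaged 693 ± 209 CPM in STING KO, 669 ± 194 CPM in cGAS KO, against 616 ± 170.5 CPM in WT.

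Gapdh, glyceraldehyde phosphate dehydrogenase (chr6:125161715-125166467, minus strand), averaged 41.0 TPM, the lowest of the payoff enzymes, and was at 50.9, 27.0 and 47.9 CPM in STING KO, at 47.3, 26.6 and 40.5 CPM in cGAS KO and at 52.1, 61.0 and 29.9 CPM in WT. Its longest annotated transcript holds 3240 words of 50 bases, and 27.8% of them also occur in 218 other annotated genes. The 19 closest copies held 13.6 CPM in all. Whether reads that match several places were counted is unknown here, so its level is uncertain. The same holds for Eno1 (72.2% of words in other genes), Pgk1 (68%), Bnip3 (62.4%), Pgam1 (41.5%), Pkm (34.4%) and Ldhb (27%). Because these longest transcripts differ in length (1978 words for Eno1, 1776 for Pgk1), the shares do not rank the genes. Without the libraries of low complexity Gapdh had a fold change of -0.36 in cGAS KO against WT with an SE of 0.15 (unadjusted p = 0.0354, adjusted p = 0.9713 by edgeR's quasi-likelihood test).

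Lactate dehydrogenase is a tetramer of the Ldha and Ldhb products. Ldha, whose promoter is shown above (gene at chr7:46841475-46855627, plus strand), was at 209, 90.3 and 189 CPM in STING KO, at 189, 98.6 and 140.1 CPM in cGAS KO and at 143, 153 and 94.5 CPM in WT. Ldhb was at 385, 160.1 and 364.5 CPM in STING KO, at 379, 172 and 287 CPM in cGAS KO and at 363.5, 309.9 and 117 CPM in WT. Groups overlapped for both genes with all libraries. Without those of low complexity Ldha was higher in both STING KO libraries than in both WT libraries, with a fold change of 0.42 and an SE of 0.17 (unadjusted p = 0.033, adjusted p = 0.697 by edgeR's quasi-likelihood test).

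The bifunctional enzymes Pfkfb2 and Pfkfb3 set the level of the allosteric activator of phosphofructokinase. Pfkfb2, the heart-type enzyme (chr1:130689182-130729253, minus strand), was at 43.8, 48.4 and 40.9 CPM in STING KO, at 42.8, 29.3 and 26.0 CPM in cGAS KO and at 47.9, 48.3 and 60.4 CPM in WT. All cGAS KO libraries were below all WT libraries, as for 4% of all genes, and 2 of the 35 genes did not overlap in either direction in this comparison (8% of all genes). The fold change was -0.67 with an SE of 0.22 and a 95% interval of -1.16 to -0.19. It did not pass the threshold (unadjusted p = 0.0113, adjusted p = 0.9999 by edgeR's quasi-likelihood test), and with all libraries no other of the 35 had an unadjusted p under 0.05. Its fold change stayed between -0.91 and -0.48 over 22 other settings, with adjusted p between 0.96 and 1. Without the libraries of low complexity the fold change of Pfkfb2 was -0.48, and its unadjusted p by the same test was no longer under 0.05. Both remaining cGAS KO libraries were below both WT libraries, as for 15% of all genes. Of the 50-base words of its longest annotated transcript, 26.1% also occur in another annotated gene.

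Pfkfb3, the isoform that drives glycolysis in astrocytes and endothelium (chr2:11471433-11554077, minus strand), was at 50.7, 58.1 and 58.1 CPM in STING KO, at 48.3, 43.3 and 48.1 CPM in cGAS KO and at 50.5, 42.2 and 40.0 CPM in WT. The STING KO libraries lay above both other groups, by a narrow margin over WT 1. The fold change was 0.33 with an SE of 0.16 against WT (unadjusted p = 0.0648, adjusted p = 0.9999 by edgeR's quasi-likelihood test) and 0.26 with an SE of 0.16 against cGAS KO. In STING KO against WT 2 of the 35 did not overlap (7.07% of all genes), and in STING KO against cGAS KO 4 of the 35 (7.35% of all genes).

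The transporters carry glucose in and lactate in or out. Slc2a1 was at 123, 140.2 and 130 CPM in STING KO, at 154, 142 and 162 CPM in cGAS KO and at 149, 144 and 137 CPM in WT. The STING KO libraries were all below the cGAS KO libraries, with a fold change of -0.22 and an SE of 0.15, and -0.32 with an SE of 0.12 without the libraries of low complexity (unadjusted p = 0.031, adjusted p = 0.9264 by edgeR's quasi-likelihood test). Summed endothelial markers, of the cells in which this transporter is abundant, were at 279 to 290 CPM in STING KO, at 287 to 356 CPM in cGAS KO and at 311 to 354 CPM in WT, with 7 of 8 negative in STING KO over cGAS KO and none at 0. Their part in the Slc2a1 values was not tested. Slc2a3 averaged 151 ± 10.2 CPM in STING KO, 146 ± 8.09 CPM in cGAS KO, against 150 ± 21.0 CPM in WT.

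Among the lactate carriers Slc16a1, whose promoter is also shown above, averaged 42.7 ± 8.33 CPM in STING KO, 41.3 ± 4.96 CPM in cGAS KO, against 36.1 ± 1.21 CPM in WT. Slc16a3 was at 5.47, 3.42 and 7.66 CPM in STING KO, at 6.15, 2.94 and 4.98 CPM in cGAS KO and at 4.15, 2.47 and 4.03 CPM in WT. Relative to WT its fold change in STING KO came to 0.64 with an SE of 0.41, and 0.98 with an SE of 0.33 without the libraries of low complexity (unadjusted p = 0.016, adjusted p = 0.661 by edgeR's quasi-likelihood test). In that fit 3 of the 35 had an unadjusted p under 0.05 in STING KO against WT (6.9% of all genes), 1 for cGAS KO over WT (4.2%) and 2 for STING KO over cGAS KO (3.7%).

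The sensors and regulators of the hypoxia response overlapped between most groups. Hif1a was at 68.9, 90.5 and 74.0 CPM in STING KO, at 68.6, 85.4 and 95.8 CPM in cGAS KO and at 79.8, 80.8 and 93.8 CPM in WT. Epas1, expressed mostly by vascular cells and astrocytes, was at 217, 359 and 237 CPM in STING KO, at 228, 314 and 299 CPM in cGAS KO and at 247, 239.6 and 328 CPM in WT. Their fold changes in STING KO against WT were -0.12 with an SE of 0.18 for Hif1a and -0.00 with an SE of 0.24 for Epas1, and with all libraries the groups overlapped. Without the libraries of low complexity both STING KO libraries were below both WT libraries for both genes, with fold changes of -0.17 and an SE of 0.17 for Hif1a and -0.10 and an SE of 0.16 for Epas1.

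Of the prolyl hydroxylases, Egln1, the main oxygen sensor (PHD2), was at 97.7, 92.5 and 107 CPM in STING KO, at 103, 98.6 and 122 CPM in cGAS KO and at 94.7, 92.9 and 83.6 CPM in WT. The cGAS KO libraries were all above the WT libraries, with a fold change of 0.26 and an SE of 0.15 (unadjusted p = 0.129, adjusted p = 0.9999 by edgeR's quasi-likelihood test). Egln3, itself a HIF target, was at 3.86, 2.51 and 3.24 CPM in STING KO, at 3.71, 3.62 and 3.34 CPM in cGAS KO and at 3.48, 4.24 and 5.52 CPM in WT, and the groups overlapped.

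The hypoxia-inducible effectors act in several directions: blood vessels, mitochondria, growth control and matrix. Vegfa, the vascular growth factor (chr17:46016993-46032369, minus strand), was at 86.6, 55.3 and 81.8 CPM in STING KO, at 83.5, 37.1 and 48.3 CPM in cGAS KO and at 72.1, 58.6 and 43.7 CPM in WT. Ddit4, the stress-induced inhibitor of mTORC1 known as REDD1, was at 53.0, 23.1 and 59.8 CPM in STING KO, at 60.3, 22.6 and 21.9 CPM in cGAS KO and at 44.2, 38.9 and 16.5 CPM in WT. For both genes the library of low complexity was the lowest of STING KO and of WT, and with all libraries the groups overlapped. Without the libraries of low complexity both STING KO libraries were above both WT libraries for both genes, as for 24.4% of all genes. cGAS KO 3, which is not a library of low complexity, was as low in Ddit4 as cGAS KO 2.

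Bnip3, a mitophagy receptor, was at 50.2, 44.2 and 48.0 CPM in STING KO, at 49.5, 49.7 and 57.0 CPM in cGAS KO and at 53.1, 59.7 and 51.5 CPM in WT. Every STING KO library was below every WT library, with a fold change of -0.21 and an SE of 0.15 (unadjusted p = 0.201, adjusted p = 0.9999 by edgeR's quasi-likelihood test). Pdk1, which blocks the entry of pyruvate into the citric acid cycle, was at 40.6, 38.2 and 36.2 CPM in STING KO, at 38.8, 43.4 and 42.1 CPM in cGAS KO and at 32.6, 41.0 and 75.8 CPM in WT. The high value belonged to WT 3 alone.

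Adm had 0 counts in STING KO 2, which at a floor of 3 counts allows up to 0.208 CPM (counting error only), and 0.933 and 1.68 CPM in the other 2 STING KO libraries. It was at 2.09, 1.06 and 1.05 CPM in cGAS KO and at 0.768, 1.29 and 0.849 CPM in WT, and a difference was not detectable at this depth. Ankrd37 was at 4.48, 2.16 and 3.52 CPM in STING KO, at 5.39, 1.51 and 2.95 CPM in cGAS KO and at 5.10, 3.60 and 1.34 CPM in WT. Ndrg1, a stress-response gene of oligodendrocytes and other cells, averaged 92.5 ± 14.9 CPM in STING KO, 111 ± 11.9 CPM in cGAS KO, against 96.5 ± 33.2 CPM in WT. P4ha1, a collagen prolyl hydroxylase subunit, averaged 64.9 ± 10.2 CPM in STING KO, 64.7 ± 4.90 CPM in cGAS KO, against 57.6 ± 18.9 CPM in WT. For these 4 genes the groups overlapped in every comparison.

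**Figure D5:**
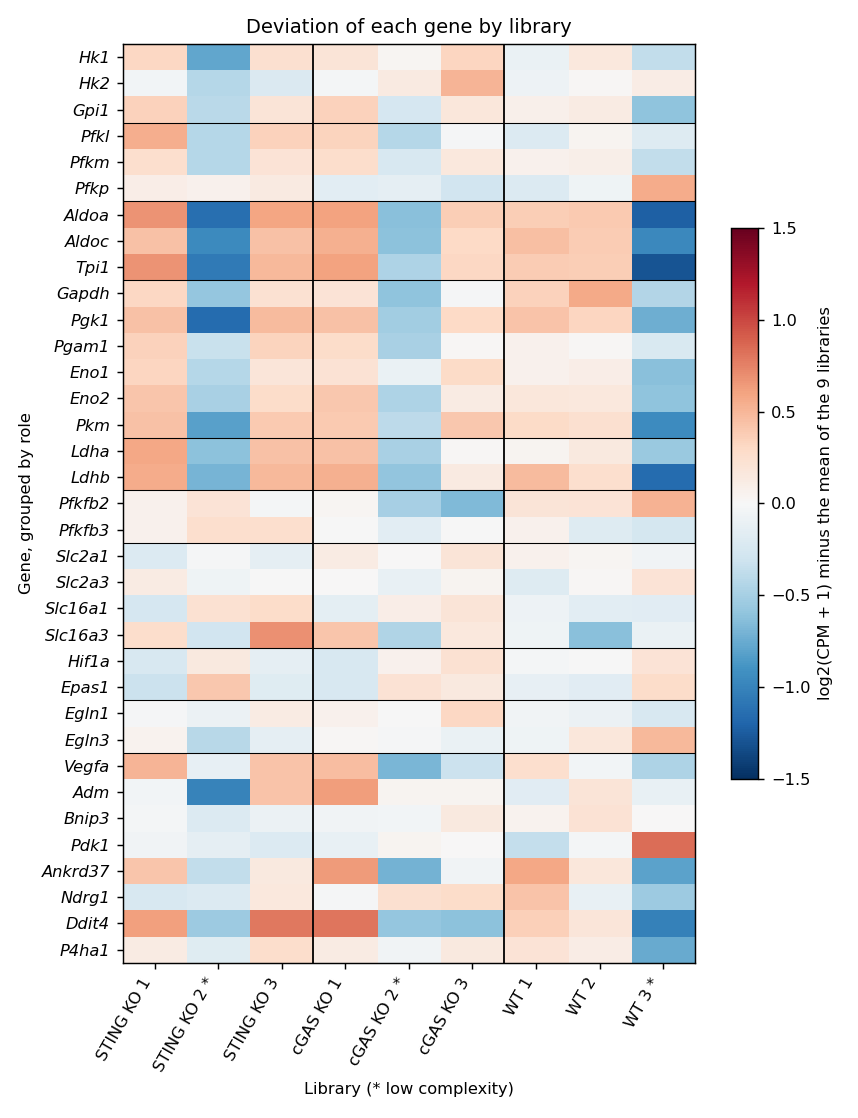
Log2(CPM + 1) of each gene in each library minus its mean over the 9 libraries, with genes grouped by role and libraries ordered STING KO, cGAS KO and WT; a star marks the libraries of low complexity. The starred columns are blue across most glycolytic enzymes, and the rows of Slc2a1 and Slc2a3 are paler.

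There were 99 further genes of these pathways, in 4 lists, not all of which had enough counts to be tested. Of those tested, 0 were called in any of the 3 comparisons by edgeR's quasi-likelihood test, with 0% of all genes called. The list of other glycolytic, glycogen and pentose phosphate enzymes had 24 tested genes, with 15 positive fold changes in STING KO against WT (median 0.10) and 12 in cGAS KO against WT (median -0.03). Its most abundant genes per length were Taldo1, a transaldolase, and Pygb, the brain glycogen phosphorylase. Pygb was at 172, 97.9 and 177 CPM in STING KO, at 164, 150 and 228 CPM in cGAS KO and at 151, 150.4 and 98.6 CPM in WT. Taldo1, of the pentose phosphate pathway, had fold changes of 0.13 for STING KO over WT (SE 0.30) and 0.23 for cGAS KO over WT (SE 0.30). In the same list 10 of 24 genes were lower in all 3 libraries of low complexity, against 15 of the 17 glycolytic enzymes and 30.9% of all tested genes.

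Of the 23 genes of pyruvate entry and of lactate or glucose transport, 11 were positive in STING KO against WT (median -0.01) and 14 in cGAS KO against WT (median 0.05). Bsg, the chaperone of the monocarboxylate transporters, was at 302, 165 and 297 CPM in STING KO, at 318, 228 and 314 CPM in cGAS KO and at 331, 246 and 113 CPM in WT, lowest in the library of low complexity of each group. Pdp1, a pyruvate dehydrogenase phosphatase, had fold changes of 0.13 for STING KO over WT (SE 0.17) and 0.15 for cGAS KO over WT (SE 0.17). Of the 17 oxygen-sensing regulators 8 (median -0.02) and 10 (median 0.06) were positive in these comparisons. The most abundant, Hsp90ab1, a chaperone of HIF1A, had fold changes of 0.02 with an SE of 0.24 in STING KO against WT and 0.17 with an SE of 0.24 in cGAS KO against WT. Hsp90aa1, its stress-inducible form, had fold changes of -0.15 for STING KO over WT (SE 0.21) and 0.07 for cGAS KO over WT (SE 0.21). By edgeR's quasi-likelihood test, Siah2 was higher and Hif3a lower in STING KO against WT at an unadjusted p under 0.05. The share of all genes was 1.63%, and the other lists had 0 of 24, 1 of 23 and 1 of 32 such genes. Hif3a was also lower in STING KO against cGAS KO, as 1 of the 17 (1.45% of all genes). In cGAS KO against WT 0 of the 17 reached it (2.03%). Of 32 tested other hypoxia-inducible genes 18 (median 0.04) and 15 (median -0.03) were positive. Bnip3l, the mitophagy receptor NIX, had fold changes of 0.03 with an SE of 0.19 in STING KO against WT and 0.25 with an SE of 0.19 in cGAS KO against WT. Kdm4b, a histone demethylase, had fold changes of 0.24 for STING KO over WT (SE 0.15) and 0.31 for cGAS KO over WT (SE 0.15). Epo, which encodes erythropoietin, had 0 counts in all 9 libraries.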

How the data were processed

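Polyadenylated striatal RNA was read from both ends on a HiSeq sequencer, per the labels' protocols. The submitters' processing notes name HISAT2, featureCounts and mm10; versions, annotation, strandedness and the handling of multiply matching reads are not known here. The authors deposited raw whole-number counts per Ensembl gene ID, 1 file per library. Of 54532 IDs 54495 matched GENCODE M21 on GRCm38.

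Counts were tested with the quasi-likelihood F test of edgeR 4.0.16 under R 4.3.3, using 9 libraries in 1 fit, TMM factors (0.934 to 1.05) and filterByExpr, which left 17821 genes. Calls are Benjamini-Hochberg adjusted p under 0.05 over all of them. CPM are TMM-scaled, and TPM use exon-union length. Differences in log2 CPM of the libraries of low complexity were taken after adding 1 CPM. The correlations of deviations used log2 CPM with a prior count of 2. Aldoa, whose symbol is on 2 IDs, was taken by ENSMUSG00000030695. Alternatives were DESeq2 1.42.0, limma-voom (limma 3.58.1), other scalings, other count filters, fits restricted to the 6 libraries of a comparison, a replicate block, omission of each library, and omission of the 3 libraries of low complexity, the last also with other scalings, chosen after seeing the data. The 35 genes, the wider lists and the division by complexity were chosen with earlier results of these data known. All 35 genes are named, and of each wider list the 2 most abundant per length. Hif3a and Siah2 were named in addition for their unadjusted p, and Epo because it had no counts. Correlations of deviations ran from -0.447 to 0.502 between same-numbered libraries and from -0.516 to 0.533 between differently numbered ones. The highest was between cGAS KO 2 and WT 3, which are both of low complexity, so these correlations cannot decide on pairing. The labels do not say that numbers pair animals, so replicate numbers were not used as pairs in the main fit.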

Additional observations from a re-analysis of the deposited data

How the results depend on the processing

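Of the 35 genes, 0 were called in any comparison under any of 22 alternative settings, with a lowest adjusted p of 0.647 (Pfkl, STING KO against WT, without the 3 libraries of low complexity and with RLE size factors), 0.96 for cGAS KO over WT and 0.92 for STING KO over cGAS KO. Over all genes the test of the report called 0 in each comparison. DESeq2 without a count filter called 10 genes in STING KO against WT, 1 for cGAS KO over WT and 8 for STING KO over cGAS KO. edgeR without a count filter called 4, 0 and 4. Without the libraries of low complexity it called 4, 0 and 3, the same with RLE or upper-quartile factors, and 3, 0 and 3 with library totals alone. The cause was not tested. Leaving out each library in turn gave 0 to 0 calls. With the replicate block, 0 genes were called in each comparison, and the block changed no call among the 35. Fold changes of the 35 changed sign in 70 of 765 alternative values in STING KO against WT, 85 for cGAS KO over WT and 104 for STING KO over cGAS KO, and with another scaling of all 9 libraries in 4, 4 and 8. Of 51 family shares, longest-transcript length moved 37 by more than the spread between libraries. Counts per library were lowest for Adm (0 to 36), Ankrd37 (19 to 113), Egln3 (36 to 79), Slc16a3 (39 to 137) and Hk2 (40 to 96). Their SE in cGAS KO against WT was 0.965, 0.586, 0.320, 0.413 and 0.305, in the same order. The median SE of all genes there was 0.351. For Aldoa, with 3816 to 18043 counts, the SE was 0.550, so low counts were not the only limit.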
